A study of Mus musculus with 12 samples.

Results

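Metallothioneins and zinc transporters were described here through 8 mouse genes, matched by symbol to a table of 54532 genes: the metallothioneins Mt1, Mt2 and Mt3, their regulator Mtf1, the zinc exporters Slc30a1 and Slc30a4, and the zinc importers Slc39a1 and Slc39a14. All 8 were found, and all 8 reached 1 FPKM (fragments per kilobase of gene, scaled for library depth, the deposited unit of level) in at least 3 of 12 libraries, the condition for entering the fit of 11335 genes. Mt3 passed it through the osteoclast libraries alone and Mt2 through the LPS-treated macrophage libraries alone, so a difference between groups was built into their passing. The genes were chosen by their measured levels in these same libraries, and which comparison was used is not recorded. Their differences between groups are therefore a description without a test, and p-values are given for other genes only.

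RNA was sequenced from cultures of bone marrow of wild-type (WT) mice that had been expanded with CMG, a source of the growth factor M-CSF. Untreated macrophages had neither RANKL nor LPS, and osteoclasts had RANKL, the cytokine that drives macrophages to become bone-resorbing cells, given as 100 ng/mL in the sample source and as 50 to 100 ng/mL in the culture protocol. The other groups of both cell types received lipopolysaccharide (LPS), a bacterial cell-wall component, at 100 ng/mL for 3 h on day 5. Each of the 4 groups had 3 libraries. Osteoclast cultures of this kind are differentiated in a dish and can retain unfused macrophages. The labels do not say whether the libraries of a group came from separate mice, so the spread between them may be technical.

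Metallothioneins are small cysteine-rich proteins that bind zinc and copper in the cytoplasm. Free zinc activates the transcription factor MTF1, which binds metal response elements in the promoters of Mt1, Mt2 and Slc30a1. SLC30 proteins (ZnT) move zinc out of the cytoplasm, across the cell membrane or into vesicles, and SLC39 proteins (ZIP) move it in. In macrophages, zinc handling is part of the response to bacteria, and inflammatory signals are known to induce metallothioneins and Slc39a14.

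The promoters of the 3 metallothioneins and of Slc30a1 are shown because these genes differ in where they are expressed while Mt1, Mt2 and Slc30a1 are textbook MTF1 targets. Each runs from 250 bases before to 50 after the RefSeq start on build GRCm38.p6, on the plus strand, at chr8:94178839-94179138 for Mt1, chr8:94172368-94172667 for Mt2, chr8:94152357-94152656 for Mt3 and chr1:191906531-191906830 for Slc30a1. Capitals mark the core of the metal response element, TGCACNC or TGCGCNC on either strand, with N for any base.
Mt1: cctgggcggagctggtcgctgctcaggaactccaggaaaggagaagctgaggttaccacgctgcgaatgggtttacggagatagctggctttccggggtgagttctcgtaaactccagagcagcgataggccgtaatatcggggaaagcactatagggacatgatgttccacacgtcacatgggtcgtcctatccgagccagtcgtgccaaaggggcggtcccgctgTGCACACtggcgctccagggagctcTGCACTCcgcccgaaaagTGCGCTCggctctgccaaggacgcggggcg
Mt2: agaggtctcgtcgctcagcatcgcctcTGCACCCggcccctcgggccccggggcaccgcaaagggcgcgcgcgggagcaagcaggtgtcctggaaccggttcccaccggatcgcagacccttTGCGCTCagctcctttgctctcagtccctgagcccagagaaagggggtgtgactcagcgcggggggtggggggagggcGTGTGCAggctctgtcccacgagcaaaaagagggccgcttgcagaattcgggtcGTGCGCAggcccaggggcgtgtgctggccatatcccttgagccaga
Mt3: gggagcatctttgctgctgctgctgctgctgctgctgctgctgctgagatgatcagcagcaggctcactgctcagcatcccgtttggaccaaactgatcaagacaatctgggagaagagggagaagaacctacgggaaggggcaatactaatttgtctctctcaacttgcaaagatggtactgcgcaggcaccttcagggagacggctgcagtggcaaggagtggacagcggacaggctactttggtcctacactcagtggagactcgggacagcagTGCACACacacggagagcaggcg
Slc30a1: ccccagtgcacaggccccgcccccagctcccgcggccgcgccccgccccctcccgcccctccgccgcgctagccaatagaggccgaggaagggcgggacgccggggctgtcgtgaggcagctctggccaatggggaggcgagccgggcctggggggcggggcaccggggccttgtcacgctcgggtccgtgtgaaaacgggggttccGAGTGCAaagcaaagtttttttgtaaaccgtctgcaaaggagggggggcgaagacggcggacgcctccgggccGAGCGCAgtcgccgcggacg

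The core occurred 4 times in the Mt2 window, 3 times in that of Mt1, 2 times in that of Slc30a1 and 1 time in that of Mt3. Counted from the start as position 1, the Mt1 copies began at positions -23, 3 and 21, and the single Mt3 copy at position 28. The Slc30a4 window, on chromosome 2, held 3 copies, whereas those of Mtf1 and Slc39a1 held none. Of 32851 promoter windows of this length in the table, 25.7% held at least 1 copy, 7.11% at least 2, 1.97% at least 3 and 0.517% at least 4. An antioxidant response element core, TGACNNNGC on either strand, was found 1 time each in the windows of Mt2, Slc30a1 and Slc39a1, against 12.4% of all windows. The STAT element TTCNNNGAA, which reads alike on both strands, was in 8.3% of all windows and in none of the 7 member windows. Slc39a14 had no window in the table. A match is a run of letters and was not tested as a binding site.

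The libraries held between 15651770 and 20281456 reads assigned to genes, as recovered from the deposited values. Defining markers went with the cell labels: the summed level of 10 osteoclast markers was 16.3 to 29.0 FPKM in macrophage libraries and 29220 to 32220 FPKM in osteoclast libraries. The sum of 7 macrophage markers was 1466 to 2457 FPKM in macrophage and 362 to 420 FPKM in osteoclast libraries. The sum of 7 stromal and osteoblast markers was 26.1 to 36.0 FPKM in macrophage libraries, with 3 of 7 at 1 FPKM or more without LPS, and at most 1.4 FPKM in osteoclast libraries. Neutrophil markers summed to at most 4.36 FPKM, and lymphoid, dendritic and erythroid markers to at most 1.33 FPKM. The LPS response markers Tnf, Il6 and Cxcl10 summed to 6173 to 6327 FPKM in LPS-treated macrophages and 252 to 425 FPKM in LPS-treated osteoclasts, against 54.6 to 59.4 and 7.21 to 9.61 FPKM without LPS. Mitochondrial genes held 1.27% to 1.62% of the reads of macrophage libraries and 5.16% to 6.18% of those of osteoclast libraries. The part of these differences in the results below was not tested.

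Mt3, known mainly as a brain metallothionein, was listed at 0 or next to 0 in macrophages and above Mt1 in osteoclasts. It had 0 reads in all 3 untreated macrophage libraries, and 1, 0 and 0 reads in those with LPS. In untreated osteoclasts its level was 370, 394 and 388 FPKM, and with LPS it was 409, 441 and 405 FPKM. The macrophage and osteoclast libraries did not overlap, and each LPS-treated osteoclast library lay above each untreated one. Set against a floor of 3 reads in each macrophage library, the osteoclast mean of 384 ± 12.2 FPKM (SD, n = 3) was at least 3135-fold higher without LPS. With LPS, the mean of 418 ± 19.6 FPKM (SD, n = 3) was at least 2060-fold higher. The osteoclast groups themselves stood 1.09-fold apart, a difference of 0.12 in log2(FPKM + 1) (SE 0.05). By mean FPKM, Mt3 ranked 87 of 54532 genes in untreated osteoclasts. In these bulk cultures, fewer cells of a type and less RNA per cell cannot be told apart.

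Mt1, an inducible metallothionein found in most tissues, was expressed in all 4 groups and was highest in LPS-treated macrophages. Untreated macrophages had 92.1, 94.7 and 91.0 FPKM, and LPS-treated macrophages had 275, 219 and 268 FPKM. Osteoclasts had 194, 200 and 197 FPKM without LPS and 202, 196 and 177 FPKM with it. The order was thus LPS-treated macrophages, then both osteoclast groups, whose libraries overlapped, then untreated macrophages. The mean was 2.74-fold higher with LPS in macrophages, with group means of 92.6 ± 1.91 and 254 ± 30.7 FPKM (SD, n = 3). On the log2 scale this is 1.44 (SE 0.08). In osteoclasts the LPS difference was -0.04 (SE 0.08), and the difference between these responses was -1.48 (SE 0.11) on the log2 scale. Untreated osteoclasts were 2.13-fold above untreated macrophages, and LPS-treated osteoclasts were at 0.755 times the level of LPS-treated macrophages. The log2 difference of the latter pair was -0.40 as deposited and -0.09 after quantile normalization.

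In osteoclasts Mt3 stood above Mt1 per length as well as in reads, with 21409 reads for Mt3 and 12862 for Mt1 over the 3 untreated libraries. The deposited lengths bear on this comparison. The gene model of Mt1 merges retained introns into 1246 bases against 549 bases of its spliced coding transcript, and that of Mt3 has 1066 against 536. Per spliced length, the means in untreated osteoclasts were 764 FPKM for Mt3 and 448 FPKM for Mt1.

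Mt2, the usual partner of Mt1, was listed near 0 in 3 of the 4 groups. It had 1, 2 and 0 reads in untreated macrophages, 43, 14 and 38 with LPS, then 1, 2 and 0 in untreated osteoclasts and 0, 2 and 3 in LPS-treated osteoclasts. As levels, the LPS-treated macrophage libraries had 5.73, 1.60 and 4.60 FPKM, with the second library far below the others and all 3 above every library of the other groups. Their mean of 3.97 ± 2.14 FPKM (SD, n = 3) was at least 17.9-fold above a floor of 3 reads in each untreated macrophage library. Without the second LPS-treated library, the log2 difference from untreated macrophages was 2.52 in place of 2.10.

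The Mt2 values cannot be read as the level of the Mt2 transcript. The antisense gene Gm45774, at 94170748 to 94173412 on the minus strand of chromosome 8, covers 432 of the 588 exon bases of Mt2, or 73.5%, and leaves 156 free. Whether reads were counted by strand is not given in the sources used here, and the part of the overlap in the low counts was not tested. Gm45774 itself had 4, 8 and 4 reads in LPS-treated macrophages, 0 in untreated macrophages and 0 to 2 in each osteoclast library. The fourth metallothionein gene, Mt4, had 0 reads in all 12 libraries.

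**Figure D1:**
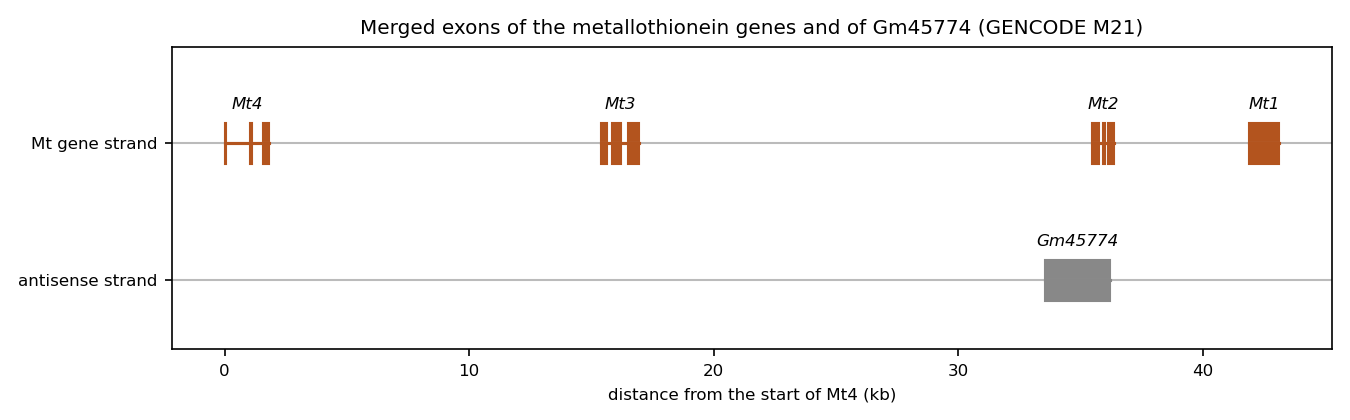
Exons of Mt4, Mt3, Mt2 and Mt1 (orange) and of the antisense gene Gm45774 (grey) as blocks along the distance from the start of Mt4, in kb. Gm45774 covers 432 of the 588 exon bases of Mt2, and Mt1 appears as 1 block because its merged model is 1246 bases without a gap.

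The 4 metallothionein genes lie side by side on the plus strand of chromosome 8 in GENCODE M21 (build GRCm38), Mt3 at 94152607 to 94154146, Mt2 at 94172664 to 94173568 and Mt1 at 94179082 to 94180327. Of the 5 protein-coding neighbours on each side, 8 of 10 were tested, and Gnao1 and Slc12a3 were under the filter in all groups. The neighbours' log2 differences between untreated osteoclasts and macrophages ran from -1.10 for Nlrc5 to 1.23 for Herpud1. That of Mt3 was 8.59 (SE 0.05) with the pseudocount of 1 and 11.91 with 0.1, since untreated macrophages had 0 reads. With LPS in macrophages, Herpud1, an endoplasmic reticulum stress gene, rose by 1.32 (adjusted p = 1.01e-08). Nlrc5, a regulator of MHC class I genes, rose by 2.44 (adjusted p = 1.45e-08).

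**Figure D2:**
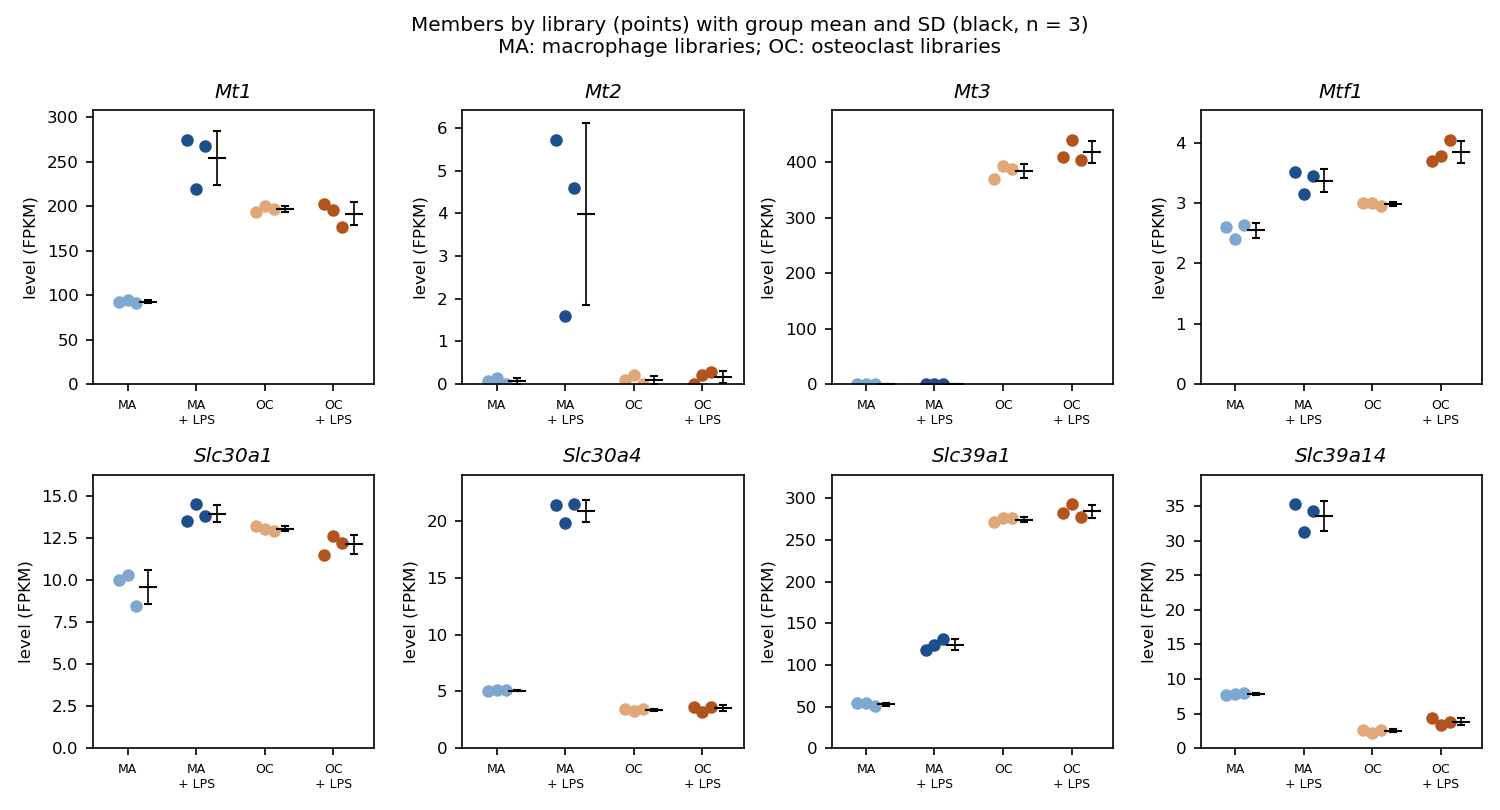
Level in FPKM (vertical axes, each from 0) of the 8 genes in each library (points) with the group mean and SD in black, for macrophages (MA) and osteoclasts (OC) with and without LPS. Mt3 lies between 370 and 441 FPKM in osteoclasts and at 0 to 0.0735 FPKM in macrophages, and Slc30a4 and Slc39a14 are highest in LPS-treated macrophages.

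Mtf1, the zinc-sensing activator, was expressed at a low level with small differences. Untreated macrophages had 2.60, 2.41 and 2.63 FPKM and LPS-treated macrophages 3.51, 3.15 and 3.45 FPKM. Osteoclasts had 3.00, 3.00 and 2.95 FPKM without LPS and 3.70, 3.78 and 4.05 FPKM with it. The LPS-treated libraries did not overlap with the untreated ones in either cell type, and the log2 differences were 0.30 in macrophages and 0.28 in osteoclasts (SE 0.05 for each). Rescaled so that each library has the same total (TPM), the macrophage difference turned to -0.22 while the osteoclast one was 0.27. The Mtf1 gene, on chromosome 4 at 124802104 to 124849800, overlaps 1110065P20Rik on the other strand.

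Slc30a1 (ZnT1) exports zinc across the cell membrane. It had 9.97, 10.3 and 8.43 FPKM in untreated macrophages and 13.5, 14.5 and 13.8 FPKM with LPS, and these libraries did not overlap. Osteoclasts had 13.2, 13 and 12.9 FPKM without LPS and 11.5, 12.6 and 12.2 FPKM with LPS. From highest to lowest mean, the order of LPS-treated macrophages, untreated osteoclasts, LPS-treated osteoclasts and untreated macrophages matched that of Mt1, with means from 9.55 to 13.9 FPKM. No groups next to each other in this order overlapped. The LPS difference in macrophages was 0.50 (SE 0.06) on the log2 scale as deposited and -0.10 after rescaling to TPM. In osteoclasts it was -0.10 (SE 0.06). Untreated osteoclasts minus untreated macrophages gave 0.42 as deposited and 0.03 in TPM. Slc30a1, on chromosome 1 at 191906767 to 191913247, overlaps 1700034H15Rik on the other strand.

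Slc30a4 (ZnT4), which loads zinc into vesicles, was high in 1 group. LPS-treated macrophages had 21.4, 19.8 and 21.5 FPKM against 5.02, 5.10 and 5.10 FPKM in untreated macrophages, a 4.12-fold higher mean or 1.85 higher in log2 (SE 0.05). Osteoclasts had 3.43, 3.27 and 3.45 FPKM without LPS and 3.66, 3.20 and 3.67 FPKM with LPS, and these libraries overlapped. LPS-treated macrophages therefore stood 5.96-fold above LPS-treated osteoclasts, while untreated macrophages stood 1.5-fold above untreated osteoclasts. The difference between the LPS responses was -1.81 (SE 0.07) as deposited and -1.37 after rescaling to TPM. Slc30a4, on chromosome 2 at 122681233 to 122702663, overlaps 4930417H01Rik on the other strand.

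Slc39a1 (ZIP1), a zinc importer of the cell membrane, was the most abundant of the 4 transporters in every group. Untreated macrophages had 53.8, 54 and 50.4 FPKM and LPS-treated macrophages 118, 124 and 131 FPKM. Osteoclasts had 271, 276 and 276 FPKM without LPS and 282, 293 and 277 FPKM with LPS. All 6 osteoclast libraries lay above all 6 macrophage libraries. Untreated osteoclasts were 5.21-fold above untreated macrophages, or 2.36 in log2 (SE 0.04), and LPS-treated osteoclasts were 2.28-fold above LPS-treated macrophages. The LPS difference was 1.22 (SE 0.04) in macrophages and 0.05 (SE 0.04) in osteoclasts. In untreated osteoclasts Slc39a1 ranked 134 of 54532 genes by mean FPKM. It lies on chromosome 3 at 90248172 to 90253612.

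Slc39a14 (ZIP14), an importer of zinc, iron and manganese, was highest in LPS-treated macrophages and lowest in untreated osteoclasts. Untreated macrophages had 7.69, 7.82 and 8.0 FPKM and LPS-treated macrophages 35.3, 31.2 and 34.3 FPKM, a 4.28-fold higher mean. Osteoclasts had 2.71, 2.28 and 2.68 FPKM without LPS and 4.38, 3.40 and 3.84 FPKM with LPS, without overlap. No 2 of the 4 groups overlapped. The LPS difference was 1.97 (SE 0.08) in macrophages and 0.45 (SE 0.08) in osteoclasts on the log2 scale. LPS-treated macrophages were 8.67-fold above LPS-treated osteoclasts, and untreated macrophages 3.06-fold above untreated osteoclasts. It lies on chromosome 14 at 70303469 to 70351425.

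Across the 8 genes, 7 met the call rule (adjusted p below 0.05 in the fit of all genes) as higher with LPS in macrophages, where 69.9% of all genes tested were called, 36.8% higher and 33.1% lower. Mt3 was the exception, at or under the floor in both macrophage groups. With LPS in osteoclasts 2 genes, Mtf1 and Slc39a14, were called higher, beside 17.7% of all genes tested called, 11.1% higher and 6.59% lower. Their median log2 difference was 1.33 in macrophages and 0.07 in osteoclasts, against 0.02 and 0.01 over all genes tested. In the comparison of untreated osteoclasts with untreated macrophages 5 were called higher and 2 lower (3 and 3 in TPM). Of all genes, 77.8% were called, 38.8% higher and 39% lower (24.2% and 56.8% in TPM). With LPS in both cell types 3 were called higher in osteoclasts and 5 lower, with 83.9% of all genes called, 40.9% higher and 43% lower. The LPS response in osteoclasts minus that in macrophages was called below 0 for 6 of the 8, with 56.6% of all genes called, 26.6% above 0 and 30% below. No library of one group fell within the range of the other for 7 of the 8 with LPS in macrophages (74% of all genes tested) and for 5 with LPS in osteoclasts (34%). Between the cell types this held for 7 without LPS (81.4%) and for 8 with LPS (83.6%). Nothing is read from these counts, since the genes were chosen with these values known and the comparisons share libraries.

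**Figure D3:**
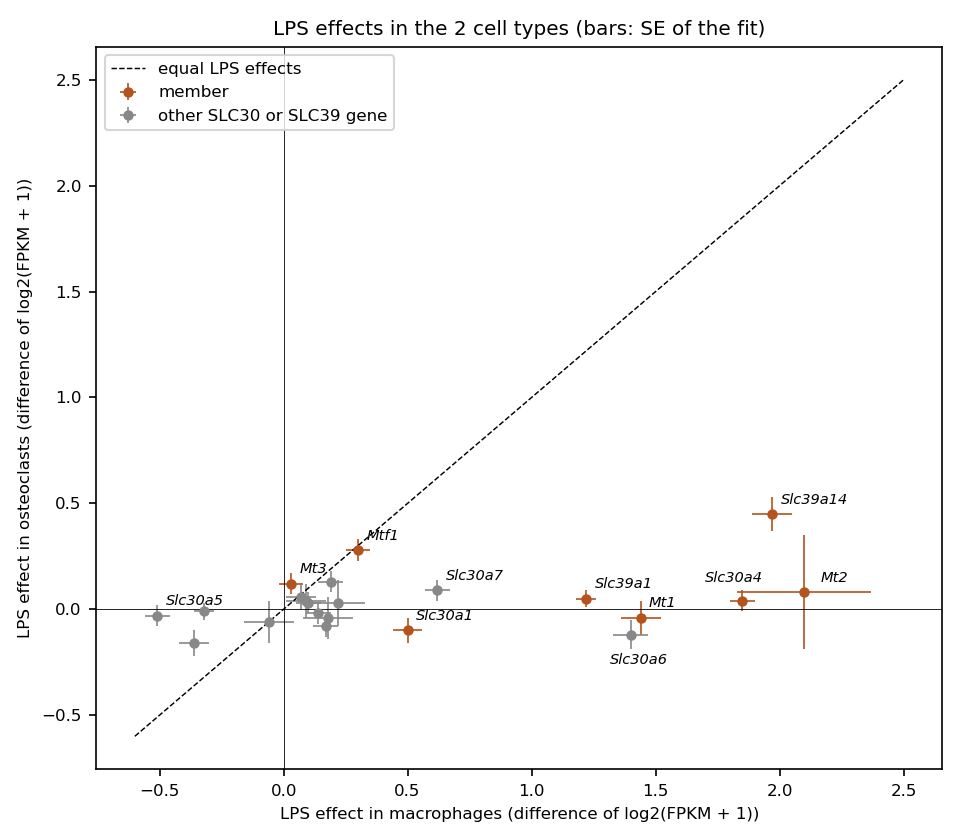
LPS effect in macrophages (horizontal) against that in osteoclasts (vertical), as differences of log2(FPKM + 1), for the tested metallothioneins, Mtf1 and zinc transporters; bars are the SE of the fit and the dashed line marks equal effects. Members (orange) reach 2.10 in macrophages and at most 0.45 in osteoclasts, and Mtf1 lies near the dashed line.

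The deposited FPKM are scaled to the typical gene, and LPS-treated macrophage libraries had larger FPKM sums than untreated ones. Over the same 11335 genes, rescaling each library to the same total moved the median log2 difference by -0.58 for LPS in macrophages, from 0.02 to -0.55, and by -0.38 for untreated osteoclasts against macrophages. The TPM fit itself ran on the 13950 genes with at least 1 TPM in 3 or more libraries, which include these. Relative to the same total, 5 members were called higher with LPS in macrophages and 1 lower. Slc30a4 and Slc39a14 had log2 differences of 1.35 and 1.42 there, Mt1 of 0.80 and Slc39a1 of 0.59. After quantile normalization Mt1 had 0.63 and Slc39a1 0.49. Of the same 11335 genes, 4168 were called higher and 3753 lower as deposited, and 1791 (15.8%) higher and 7906 (69.7%) lower in TPM.

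**Figure D4:**
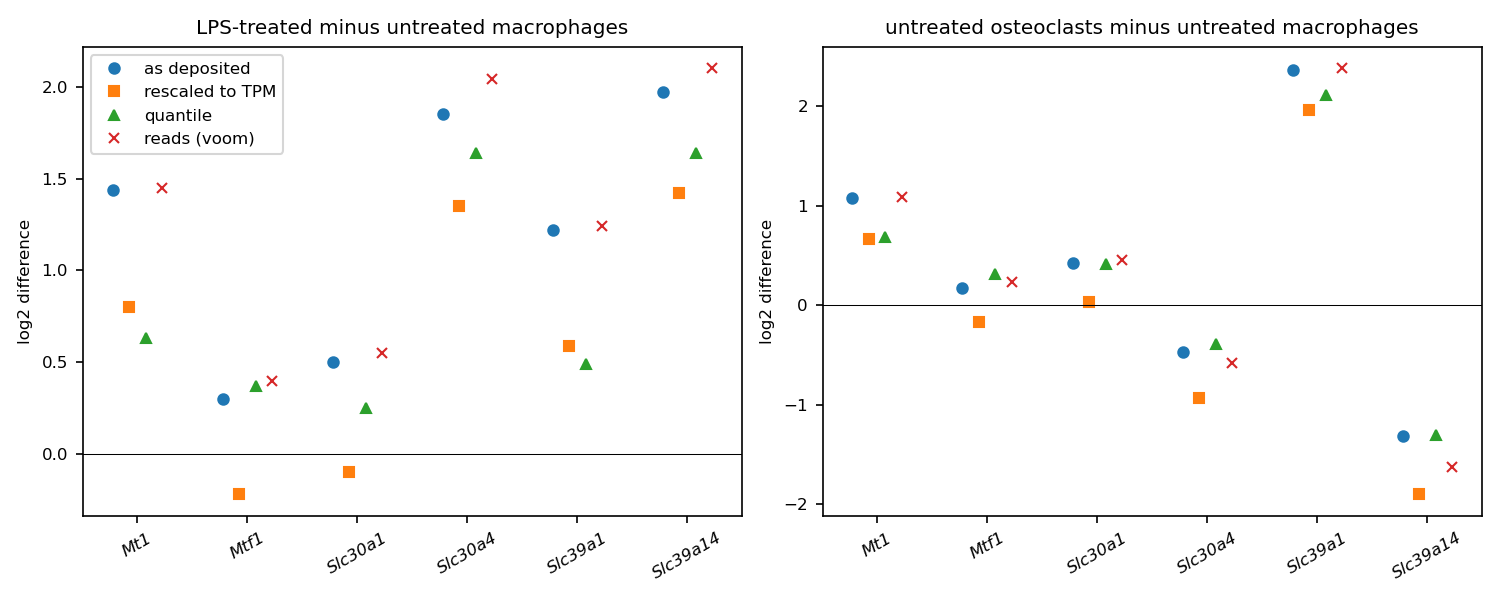
Log2 differences (vertical axes) of 6 genes for LPS in macrophages (left) and for untreated osteoclasts against macrophages (right), from deposited FPKM, values rescaled to TPM, quantile-normalized values and the recovered reads with voom. Mtf1 is above 0 at 0.30 as deposited and below 0 at -0.22 in TPM on the left, and Slc39a1 stays above 0 at 2.36 and 1.96 on the right.

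The rest of the 2 transporter families allowed a test, as 14 of the other 20 SLC30 and SLC39 genes passed the filter. The families were listed with earlier results of these data known. In untreated osteoclasts against macrophages all 14 were called, 8 higher and 6 lower, beside 77.8% of all genes. Among the lower, Slc39a4, Slc39a8 and Slc39a12 had passed the filter through macrophage libraries alone, so a difference was built into their passing. In TPM 6 were called higher and 6 lower, beside 24.2% and 56.8% of all genes. Slc39a13 (ZIP13), an importer of Golgi and vesicle membranes that connective tissue needs, was 4.91-fold higher in osteoclasts, at 33.7 ± 0.494 against 6.86 ± 0.223 FPKM (SD, n = 3). Its log2 value for this comparison was 2.14 (SE 0.05, adjusted p = 1.42e-12). Slc39a13 overlaps Psmc3 on the other strand. Slc30a6 (ZnT6), which works with ZnT5 to supply zinc to enzymes in the Golgi, was 2.8-fold higher (adjusted p = 9.04e-09), and its partner Slc30a5 fell by 0.21 (adjusted p = 0.00354). Slc39a11 was 2.07-fold higher (adjusted p = 4.51e-09) and Slc39a10 (ZIP10), an importer of the cell membrane, 1.71-fold higher (adjusted p = 2.46e-08).

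Among the transporters that were lower in untreated osteoclasts, Slc39a8 (ZIP8), the closest relative of ZIP14, was at 0.392 ± 0.0802 FPKM in osteoclasts and 3.45 ± 0.0975 FPKM in macrophages (SD, n = 3). Its untreated macrophage mean was 8.81-fold that of untreated osteoclasts. The log2 difference was -1.68 (SE 0.08, adjusted p = 1.03e-09), the same direction as the -1.31 of Slc39a14. Slc39a12 had at most 1 read in each untreated osteoclast library and 60 to 71 in each untreated macrophage library. Its untreated macrophage mean was at least 16.7-fold above a floor of 3 reads in each untreated osteoclast library. The difference of log2(FPKM + 1) was -0.96 (adjusted p = 6.96e-06), which the pseudocount of 1 makes small. Slc39a6 (ZIP6), another importer, differed by -0.56 (adjusted p = 1.94e-06). Slc39a4 (ZIP4), the intestinal zinc importer, differed by -0.54 (adjusted p = 4.25e-04), with 1.18 FPKM in untreated macrophages and 0.500 FPKM in untreated osteoclasts. Slc39a8, Slc39a12 and Slc39a4 reached 1 FPKM in macrophage libraries alone, so a difference between the cell types was built into their passing the filter. The p-values of these genes are therefore not read as a test.

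**Figure D5:**
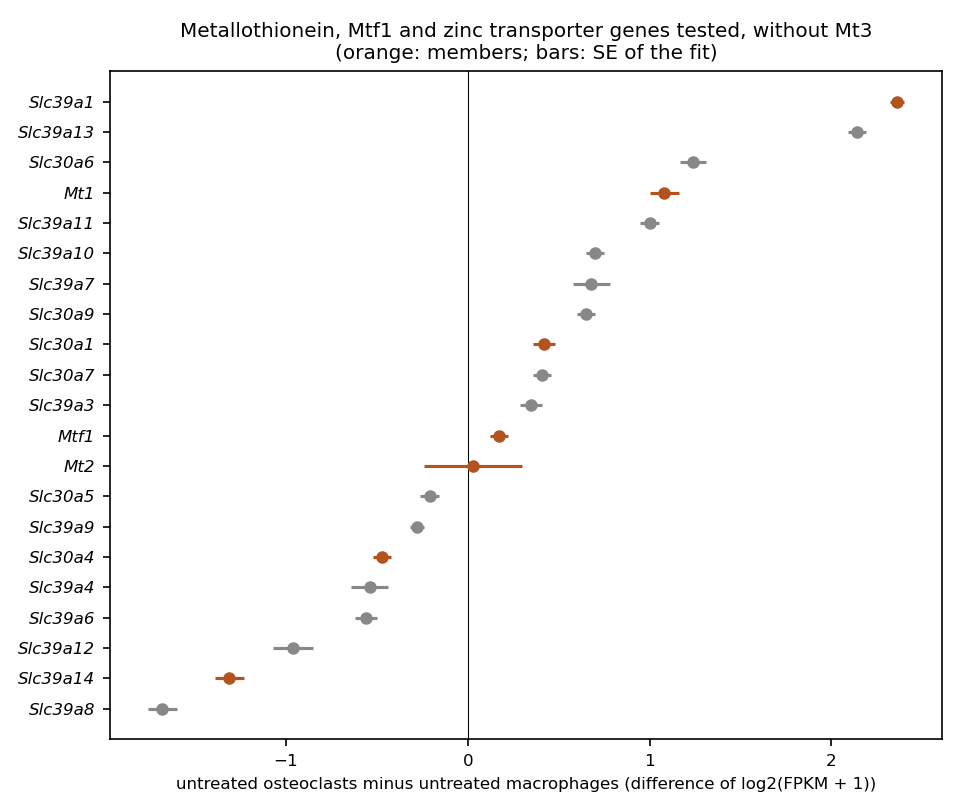
Difference of log2(FPKM + 1) between untreated osteoclasts and untreated macrophages (horizontal) for each tested metallothionein, Mtf1 and zinc transporter gene except Mt3, with the SE of the fit as bars. Slc39a1 at 2.36 and Slc39a13 at 2.14 stand at the top, and Slc39a14 at -1.31 and Slc39a8 at -1.68 at the bottom. The pseudocount of 1 understates differences of low genes, such as the -0.96 of Slc39a12.

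With LPS in macrophages, 5 of these 14 transporters rose and 3 fell, beside 69.9% of all genes called, 36.8% higher and 33.1% lower. In TPM 1 was called higher and 10 lower, beside 15.8% and 69.7% of all genes. Slc30a6 rose 3.17-fold, from 3.11 ± 0.184 to 9.85 ± 0.899 FPKM (SD, n = 3; adjusted p = 4.53e-09). In osteoclasts its LPS difference was -0.12 (adjusted p = 0.3), and the difference between the responses was -1.52 (SE 0.10, adjusted p = 1.31e-07). Slc30a7 (ZnT7), a Golgi transporter, rose by 0.62 (adjusted p = 4.57e-07) in macrophages as deposited, and the value in TPM, 0.10, was not called. Slc30a5 fell by 0.51 (adjusted p = 3.41e-06), Slc39a3 fell by 0.36 (adjusted p = 1.50e-04) and Slc39a9 fell by 0.32 (adjusted p = 4.20e-05). Slc39a8 had a difference of 0.09 (adjusted p = 0.308), in contrast to the 1.97 of Slc39a14. With LPS in osteoclasts, limma called 0 of the 14, beside 17.7% of all genes tested. There 2 of them had an unadjusted p below 0.05. Voom on recovered reads called 1 higher (1467 of all genes higher, 943 lower), the TPM fit 1 lower (7.94% of all genes higher, 9.82% lower) and quantile normalization 2 lower (947 of all genes higher, 1514 lower). The difference between the responses was called for 5 of the 14, 2 above 0 and 3 below, beside 26.6% and 30% of all genes. In TPM 9 were called above 0 and 1 below, beside 62.9% and 13.7% of all genes. Of the 6 genes under the filter, Slc30a8 had 0 reads, Slc30a2, Slc30a3, Slc30a10 and Slc39a2 had 2 to 40 reads over all 12 libraries, and Slc39a5 had 202.

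Among 8 genes reported as MTF1 targets, 3 of them members, 6 were called higher and 1 lower with LPS in macrophages, beside 69.9% of all genes called, 36.8% higher and 33.1% lower. In TPM 4 were called higher and 3 lower, beside 15.8% and 69.7% of all genes. With LPS in osteoclasts 2 were called higher and 1 lower, beside 17.7% of all genes called. The 3 members in this list were chosen by these values. Gclc, which makes glutathione, fell by 1.62 (adjusted p = 3.73e-11), from 40.6 to 12.6 FPKM, whereas Ndrg1, a stress-induced gene, rose by 1.36 (adjusted p = 2.20e-08) and Selenow, a selenoprotein, by 1.06 (adjusted p = 1.53e-05). In untreated osteoclasts against macrophages 3 of the 8 were called higher and 3 lower, beside 77.8% of all genes called. Among the lower, Selenow was at 0.184 times the level (adjusted p = 6.66e-09), Gclc at 0.279 times (adjusted p = 1.27e-11) and Selenoh at 0.452 times (adjusted p = 1.61e-07). The higher ones were the members Mt1 and Slc30a1, and Slc39a10. Between the LPS-treated cell types 1 of the 8 was called higher in osteoclasts and 7 lower, beside 40.9% and 43% of all genes.

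Of the 6 listed regulators of metallothionein genes, of which Mtf1 is a member chosen by these values, 5 were called higher with LPS in macrophages and 1 lower, beside 69.9% of all genes called, 36.8% higher and 33.1% lower. In TPM 2 were called each way, beside 15.8% and 69.7% of all genes. With LPS in osteoclasts 3 of the 6 were called higher and 0 lower, beside 11.1% and 6.59% of all genes, and in TPM 1 was called each way, beside 7.94% and 9.82% of all genes. The difference between the responses was called below 0 for 3 of the 6 and above 0 for 0 as deposited, beside 30% and 26.6% of all genes. In TPM 3 were called above 0 and 2 below, beside 62.9% and 13.7% of all genes, and after quantile normalization 2 above and 3 below. Stat3, which carries interleukin-6 signals, rose 3.87-fold (adjusted p = 6.66e-11) and Nr3c1, the glucocorticoid receptor, 2.9-fold (adjusted p = 6.81e-09). Neither was called with LPS in osteoclasts, where the differences were 0.16 for Stat3 (adjusted p = 0.1) and -0.01 for Nr3c1 (adjusted p = 0.948). The responses differed between the cell types by -1.70 for Stat3 (adjusted p = 1.11e-08) and by -1.47 for Nr3c1 (adjusted p = 3.70e-07).

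Copper, which metallothioneins also bind, is handled by a further list of 10 genes, of which 8 were tested and 6 were called higher and 0 lower with LPS in macrophages, beside 69.9% of all genes called and 36.8% called higher. In TPM 4 were called higher and 4 lower, beside 15.8% and 69.7% of all genes. With LPS in osteoclasts 1 was called higher and 1 lower, beside 17.7% of all genes called. Slc31a2 (CTR2), a vesicle copper transporter, rose 3.93-fold (adjusted p = 1.85e-11), Sco1, a mitochondrial copper chaperone, 2.39-fold (adjusted p = 4.33e-09) and Slc31a1 (CTR1), the copper importer, 2.1-fold (adjusted p = 5.91e-11). In untreated osteoclasts against macrophages 4 were higher and 4 lower, beside 38.8% of all genes higher and 39% lower. Atox1, a cytoplasmic copper chaperone, was 3.58-fold higher (adjusted p = 1.09e-09) and Atp7a, the copper pump, was at 0.308 times the level (adjusted p = 5.87e-10).

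S100a8 and S100a9, whose proteins form the zinc-binding calprotectin of neutrophils, were called lower in untreated osteoclasts than untreated macrophages, beside 39% of all genes. The log2 differences were -1.06 (adjusted p = 6.10e-04) and -1.95 (adjusted p = 1.88e-05). S100a9 averaged 0 FPKM in untreated and 0.0737 FPKM in LPS-treated osteoclasts. It thus passed the filter through macrophage libraries alone, and its p-value is not read as a test. The levels of S100a8 and S100a9 in untreated macrophages were 1.96 and 2.96 FPKM. The summed level of the 6 neutrophil markers was 1.29 to 2.12 FPKM there and at most 0.0887 FPKM in untreated osteoclasts. The part of neutrophils was not tested.

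The genes with the pattern most like each metallothionein were ranked by Pearson's r of log2(FPKM + 1) over the 12 libraries, which share the 4 groups, so that any gene with the same group levels scores high. Nearest to Mt3 were Rufy4, Oscar, Msln, Ocstamp and Scin, with r of 0.9998 to 0.9999. Oscar and Ocstamp are osteoclast genes, and all 5 had under 1 FPKM in both macrophage groups. Nearest to Mt1 were Sik3 (r = 0.9931), Mov10 (r = 0.9926), Atp9b, Dtx2 and Riok3, with levels that were highest in LPS-treated macrophages and lowest in untreated ones. Nearest to Mt2 were Apol9b (r = 0.9869), 1700016F12Rik, Slamf1, Hamp and Rp31-ps19, each between 1.52 and 1.97 FPKM in LPS-treated macrophages. Among the members, Mt1 was most like Slc30a1 (r = 0.91), Mt2 most like Slc30a4 (r = 0.92) and Mt3 most like Slc39a1 (r = 0.90), whereas Mt1 and Mt3 had r of 0.32.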

How the data were processed

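RNA sequencing libraries of 4 groups, with 3 each, came from a NEBNext Ultra kit for RNA, per the labels' protocols. The authors deposited 1 table of FPKM per gene and library. Per the submitters' processing notes, fastp, STAR, featureCounts, DESeq2 and build mm10 were used; versions, annotation and strand setting are not given in the sources used here. All sample columns were used. With GENCODE M21 gene lengths, low values were whole multiples of 1 read (tolerance 0.02) for 96.8% of the 25854 genes above 0. For the other genes, a length that made the values whole was searched for, so whole reads there are no check. The recovered denominators equalled median-of-ratios size-factor scaling, so differences are relative to the typical gene. Libraries held 15651770 to 20281456 recovered reads; read floors cover counting error only.

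log2(FPKM + 1) of the 11335 genes with at least 1 FPKM in 3 or more libraries was fitted with limma 3.58.1 (R 4.3.3; 4 group means, all 12 libraries, trended empirical Bayes). Benjamini-Hochberg adjustment ran over all genes tested, and calls had adjusted p below 0.05. The fit was also run on simulated data with few changed genes and a fixed spread, unlike these data, so this does not check the calls here. A pseudocount of 1 understates changes of low genes. Alternatives were TPM, quantile normalization, voom on recovered reads, a pseudocount of 0.1, other filters, library weights, only the groups compared, a replicate block and leaving out each library. Replicates of a group differed by more than sampling noise.

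Members and gene lists were chosen with earlier results of these data known. Named genes are the members, the SLC30 and SLC39 families, Mt4, and from the lists of MTF1 targets, regulators, copper and S100 genes those called with the largest differences of log2(FPKM + 1); the 5 genes on each side of the cluster; and the 5 most alike. Slc31a1, Selenoh, Cox17 and Usf1 were named after their values were seen. Promoters are from RefSeq (GRCm38.p6; 7 of 8 members matched).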

Additional observations from a re-analysis of the deposited data

Results flagged for a closer look

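The LPS response in osteoclasts minus that in macrophages, in log2(FPKM + 1), was past the threshold of the interaction test in the same limma fit for the genes below; 56.6% of all genes tested were. For the members this is a description: Mt1 had -1.48, Mt2 -2.02, Slc30a1 -0.60, Slc30a4 -1.81, Slc39a1 -1.17 and Slc39a14 -1.52. The Mt2 value rests on few reads and cannot be read as a response of the Mt2 transcript. Slc30a1 had -0.07 in TPM. Among other zinc transporters, the difference was -1.52 for Slc30a6, -0.52 for Slc30a7 and -0.25 for Slc39a10, and it was 0.48 for Slc30a5 and 0.31 for Slc39a9. The call of Slc30a7 was lost in TPM (-0.07) and that of Slc39a10 after quantile normalization (-0.15), and Slc39a10 turned to 0.29 in TPM.

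Among regulators, Nr3c1 had -1.47, Stat3 -1.70 and Usf1 -0.52. The call of Usf1 was lost in TPM (0.03). Of the reported MTF1 targets, Gclc had 1.32, Ndrg1 -0.92 and Selenow -0.54. The call of Selenow was lost without replicate 3 of either macrophage group and without replicate 1 or 3 of untreated osteoclasts. It was also lost in TPM (0.06) and after quantile normalization (0.15). Of the copper genes, Slc31a1 had -1.02, Slc31a2 -1.58, Sco1 -1.20, Cox17 -1.18, Atox1 -0.44 and Atp7a -0.38. Atox1 and Atp7a turned to 0.14 and 0.12 in TPM. Cox17 averaged 2.45 FPKM in LPS-treated macrophages and under 1 FPKM in each other group, so its difference was largely built into passing the filter.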

How the results depend on the processing

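Of the members' values under the alternatives, 12 of 862 lost the call, 2 gained it and 15 changed sign. Of the sign changes, 4 concerned differences called as deposited or in TPM, of Mtf1 and Slc30a1 in TPM; the other 11 were of uncalled differences of Mt1, Mt2, Mt3, Mtf1, Slc30a4 and Slc39a1. Rescaling to TPM turned the LPS difference in macrophages to -0.22 for Mtf1, -0.10 for Slc30a1, -0.48 for Slc30a9, -0.56 for Slc39a6, -0.49 for Slc39a8, -0.44 for Slc39a10, -0.48 for Slc39a11, -0.42 for Slc39a13, -0.18 for Atox1 and -0.43 for Atp7a. Untreated osteoclasts minus macrophages became -0.17 for Mtf1 and -0.01 for Slc39a3, and the LPS-treated pair became 0.10 for Slc31a1. The difference between responses became 0.48 for Mtf1, 0.45 for Slc30a9, 0.56 for Slc39a6, 0.52 for Slc39a8, 0.29 for Slc39a10, 0.39 for Slc39a11, 0.48 for Slc39a13, 0.06 for Selenow, 0.14 for Atox1 and 0.12 for Atp7a. Quantile normalization gave -0.23 for Slc39a6, -0.16 for Slc39a11 and -0.38 for Atox1 with LPS in macrophages, 0.23 for Slc31a1 between the LPS-treated cell types, and differences between responses of 0.23 for Slc39a6, 0.15 for Selenow and 0.30 for Atox1. TPM shifts the median of all genes by construction; for quantile normalization the cause was not tested.

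A filter on a mean of 5 FPKM tests fewer genes and called 4851 for LPS in macrophages (7921 as reported), 5427 (8822) and 5694 (9509) between cell types without and with LPS, and 4018 (6413) for the difference between responses. Of the 18 zinc transporters tested, members included, 1 was called for LPS in osteoclasts, 2 without the filter, 2 in TPM (which tested 19), 2 with voom and 3 after quantile normalization; the cause was not tested. Leaving out 1 library gave 1 to 2 transporters there (2 without the third LPS-treated osteoclast library), 11 to 12 for LPS in macrophages, 18 and 15 to 16 between cell types, and 9 to 10 for the difference between responses. Over all genes the ranges were 7500 to 8012, 1432 to 2031, 8495 to 8874, 9307 to 9488 and 6049 to 6345, for LPS in macrophages, LPS in osteoclasts, cell types without LPS, cell types with LPS and the difference between responses. Between cell types, Mtf1 lost its call without replicate 2 of untreated macrophages (0.14, without LPS), and with LPS without replicate 2 of LPS-treated macrophages (0.11) or replicate 3 of LPS-treated osteoclasts (0.12). With LPS, Slc30a1 lost it without replicate 2 of LPS-treated macrophages (-0.16) or replicate 1 of LPS-treated osteoclasts (-0.15).

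Libraries with the same replicate number did not deviate together (r of -0.07 to 0.10 over 18 pairs). With the number as a replicate block, 7914, 1930, 8787, 9512 and 6422 genes and 12, 1, 18, 16 and 10 transporters were called, in the same order. Few reads limit what can be said of Mt2 and, in macrophages, of Mt3, which had at most 1 read per library there. The cause of these low counts was not tested.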
